A study of Mus musculus with 32 samples.

Results

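RNA of the PECAM-1 selected (EC) fraction of 4T1-Luc mammary tumours was compared between sunitinib-resistant and sunitinib-sensitive mice, and the comparison rests on 8 of the 32 samples of the series. The 4 resistant and 4 sensitive samples were taken by their titles, and both groups were labelled as resected at 1300 mm3. The 4T1-Luc cells, a luciferase-marked mouse mammary carcinoma line, had been injected into a mammary fat pad of Balb/C mice, females aged 8 weeks with an intact immune system. Both groups received sunitinib at 40 mg/kg in PBS with DMSO from a week after injection, and sensitivity was called on growth up to day 8. The vehicle group, titled as not treated and given the solvent without drug, supplies 4 further EC samples at the same size, and 8 samples of the bulk fraction (the digest left after bead selection) come from the same resistant and sensitive mice. Each sample is a different mouse or a different fraction of a mouse, so replicates are animals. All tumours were digested in the presence of actinomycin D, which blocks transcription, before selection with an antibody to PECAM-1.

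Sunitinib is an inhibitor of receptor tyrosine kinases, among them the VEGF receptors, the PDGF receptors, KIT, FLT3, CSF1R and RET. In tumour vessels, VEGF signalling through KDR keeps endothelial cells alive and drives sprouting, FLT1 binds VEGF as a largely decoy receptor, and PDGF-B from the endothelium recruits the mural cells (pericytes and smooth muscle) that carry PDGFRB. Angiopoietins acting on TEK, and Notch ligands such as DLL4, govern whether a vessel sprouts, matures or regresses. A bead-selected fraction also holds cells attached to or taken along with endothelium, among them mural cells, platelets and macrophages.

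The resistant arrays differed from all the others in signal before any gene was considered. Of 55681 probes, the scanner software called 52.7%, 46.1%, 52.9% and 47.9% well above background for resistant mice 1 to 4 in the EC fraction, against 86.4%, 83.9%, 79.9% and 81.2% on the sensitive arrays of mice 2 to 5. Every resistant array lay below every sensitive and vehicle array, and the means of 49.9% ± 3.44 and 82.8% ± 2.93 (SD, n = 4 each) differed by -32.9 percentage points (two-sided exact permutation test, p = 0.0286, the smallest that 4 against 4 can give). The resistant EC and bulk samples filled slide 3, which was scanned separately, while the sensitive and vehicle EC samples shared slide 1. Slide, scan and resistance therefore cannot be told apart for any gene below.

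**Figure D1:**
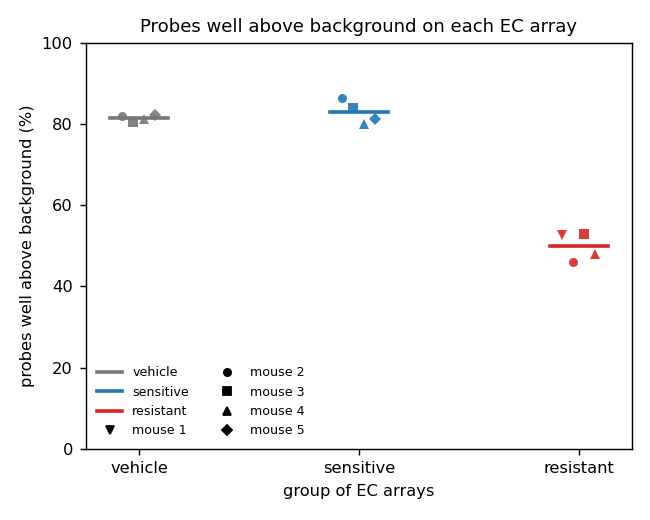
Percentage of the 55681 probes called well above background (vertical axis, linear, from 0 to 100) on each of the 12 EC arrays, by group; each marker is 1 mouse and the bars are group means. The 4 resistant arrays lie between 46.1% and 52.9%, below all 8 arrays of the other groups.

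Levels are given as log2 processed signal after subtraction of the log2 75th percentile of that array, and differences are resistant minus sensitive on that scale. A gene was tested when its probe was well above background on at least 4 of the 12 EC arrays, and called at a limma adjusted p (Benjamini-Hochberg) under 0.05. Of 17947 genes tested, 3155 were called higher in the resistant group, a background of 17.6%, and 5153 lower, a background of 28.7%. Without sensitive mouse 2 the count of higher genes was 2020. The arrays of the groups did not overlap for 17.3% of genes in the higher direction and for 25.3% in the lower. Restricting the same calls to the 12596 genes well above background on all 8 arrays turned the balance round, with 3135 higher (24.9%) and 1367 lower (10.9%). Another 2760 genes were well above background on all 4 sensitive arrays and on 0 resistant arrays, and for 0 genes was the reverse true.

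The size and the sign of a gene's difference followed its brightness. In the dimmest 3 of 10 equal bins of tested genes the median differences were -1.06, -2.03 and -1.50, and between 58.6% and 74.0% of genes were called lower. In the brightest bin the median was 0.44, with 39.5% called higher and 2.67% lower. The scaling of the arrays moved these counts as well. The median over all genes was 0.04 with the scaling used here, 0.24 after normexp background correction, -0.25 with the percentile taken over probes detected on all EC arrays and 1.32 with median scaling, and calls in the higher direction made up 38.0%, 67.3%, 11.4% and 82.9% of all calls in turn. With quantile scaling, cyclic loess scaling and the values deposited by the authors, 45.9%, 50.3% and 47.5% of calls were higher. After each of the 7 other scalings was brought to the same median of all genes, 559 genes were called higher in all of them (3.11%) and 2029 lower (11.3%). As run, with median scaling among them, 22 of the 26 lists below with a median under 0 turned sign in at least 1 scaling (all but the mural cell, adipocyte, eosinophil and skeletal muscle lists), as did 5 of the 19 with a median above 0. Once each scaling was brought to the same median of all genes, 3 and 4 did. Changes are therefore relative to the median of all genes, a call is said to hold in a scaling after that step, and the lists are read against these backgrounds.

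**Figure D2:**
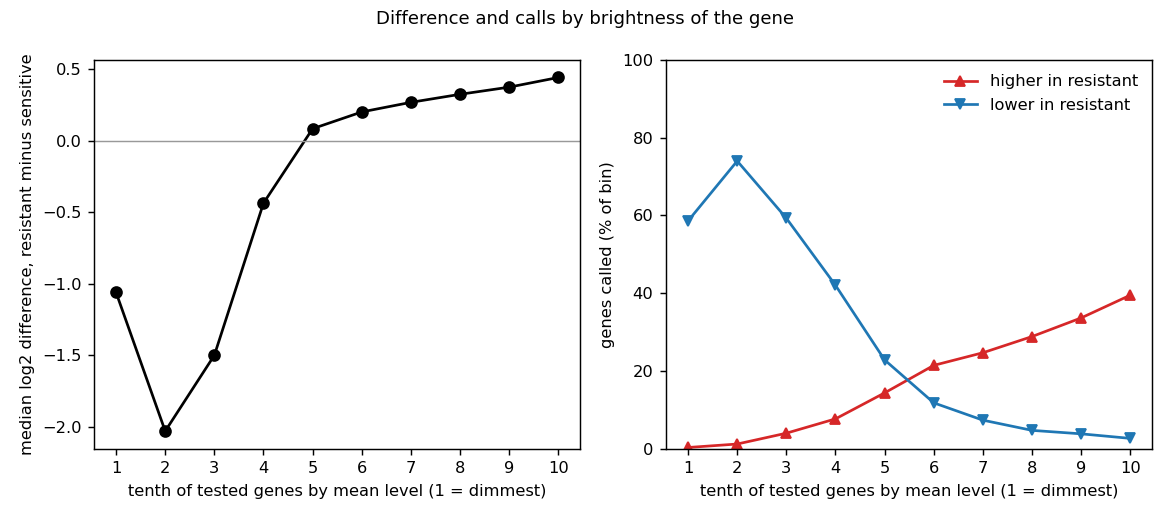
Left, median log2 difference (resistant minus sensitive) in each of 10 bins of the tested genes ordered by mean level on the 12 EC arrays; right, the percentage of genes in each bin called higher or lower. The median runs from -2.03 in the second dimmest bin to 0.44 in the brightest.

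**Figure D3:**
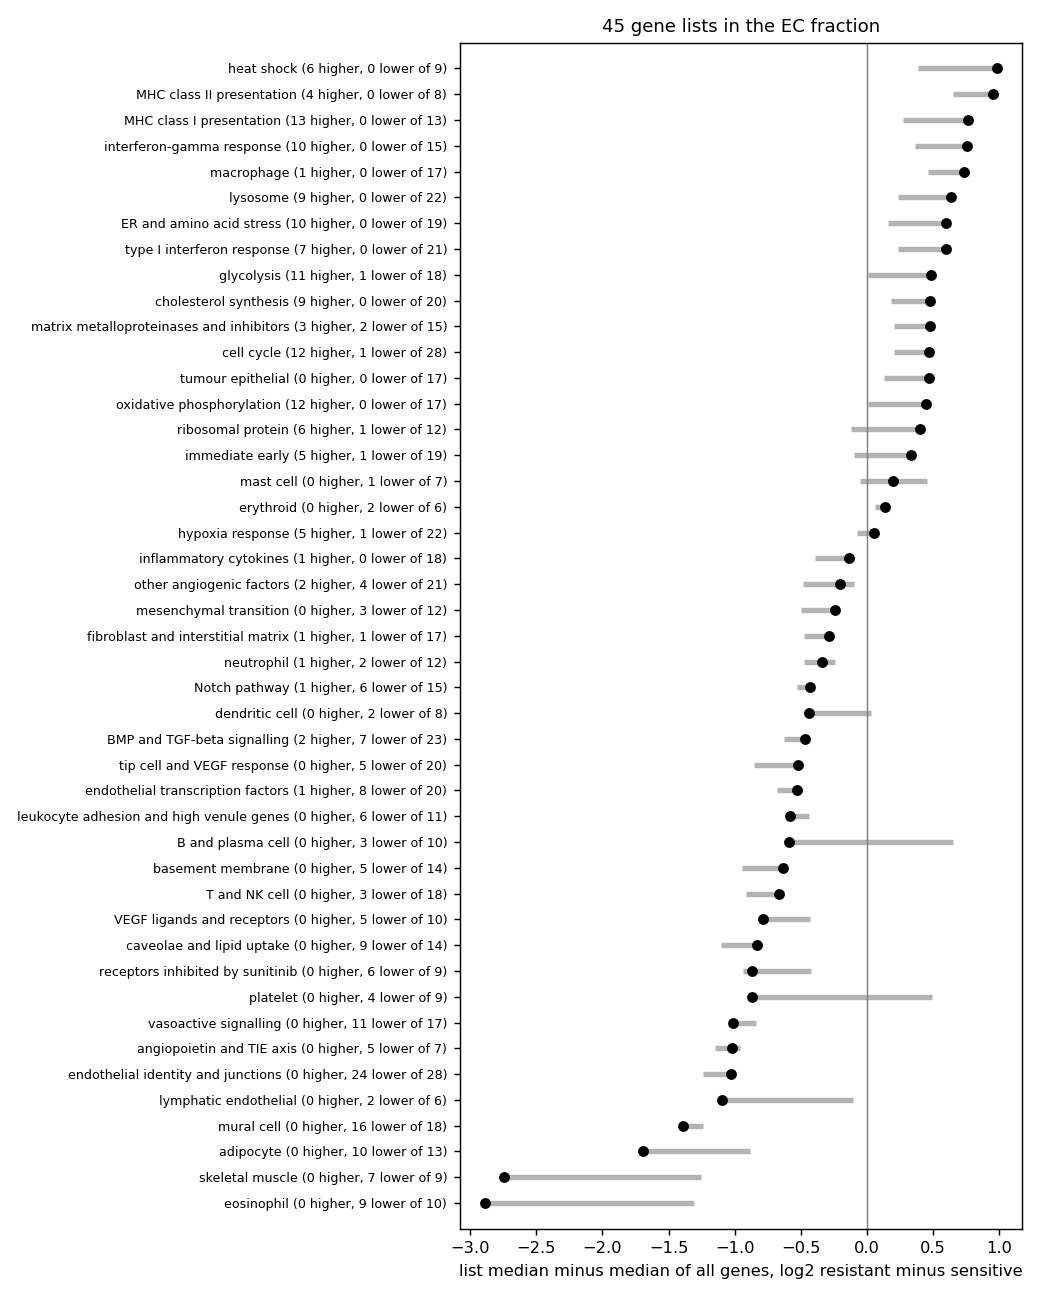
Each dot is the median log2 difference (resistant minus sensitive) of a list of genes, less the median over all tested genes; the grey bar is the range of that value over 8 scalings, and the label counts the members called higher and lower of those tested. Heat shock and antigen presentation lists stand at the top and vascular, adipocyte, muscle and eosinophil lists at the bottom; the bars of the platelet, B cell, dendritic cell, ribosomal protein, mast cell, hypoxia and immediate early lists cross 0.

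Endothelial identity and junction genes fell as a block. Of 28 members, all well above background on all 8 arrays, 24 were called lower and 0 higher, where 10.9% of such genes were called lower, and all 24 calls held in every scaling brought to the same median, although the median of the list ran from -1.27 to 0.29 over the scalings as run. The median difference of the list was -0.99, against 0.04 over all genes, and the arrays of the groups did not overlap for 13 members. The falls ranged from -1.82 (Cyyr1) to -0.54. Leaving out sensitive mouse 2 cut the count to 15, while without other single arrays it lay between there and 25. In bulk samples fewer endothelial cells in a fraction and less of these RNAs per cell cannot be told apart.

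Pecam1, whose protein was the handle for the selection, stood at 1.62, 0.68, 1.22 and 1.40 on the resistant arrays of mice 1 to 4 and at 2.78, 2.47, 2.79 and 1.74 on the sensitive arrays of mice 2 to 5. All resistant values lay below all sensitive ones, and the difference was -1.22 ± 0.26 (SE, limma adjusted p = 0.00278). Esam, a junctional adhesion molecule, stood at 3.44, 2.82, 2.56 and 2.87 against 4.57, 4.04, 4.45 and 3.77, again without overlap, and fell by 1.28 ± 0.22 (SE, adjusted p = 0.00049). Cldn5, the main claudin of endothelial tight junctions, fell by 1.23 ± 0.24 (SE, adjusted p = 0.00133), with resistant values of 2.92, 2.52, 2.78 and 2.21 below sensitive values of 4.25, 3.44, 4.30 and 3.37. Cdh5, the VE-cadherin of endothelial adherens junctions, overlapped between the groups, with 3.94, 3.33, 3.13 and 3.68 against 4.60, 3.99, 4.53 and 3.81. Its fall of 0.71 ± 0.22 (SE, adjusted p = 0.0189) was not called without sensitive mouse 2, sensitive mouse 4 or resistant mouse 3 (adjusted p up to 0.063).

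The vehicle arrays give a further level for these genes. Mean level over the 28 members lay between 2.23 and 2.67 on the vehicle arrays, between 1.96 and 2.53 on the resistant arrays and between 2.52 and 3.47 on the sensitive arrays. Against vehicle the median of the list was -0.20 in the resistant group, with 1 member called higher and 1 lower where 19.2% and 27.1% of all genes were called. The sensitive group differed from vehicle by a median of 0.71 on overlapping arrays, and the members given here did not pass the test (Esam 1.13, adjusted p = 0.68; Pecam1 0.71, adjusted p = 0.817). Over this list and the vascular and mural lists below, resistant minus vehicle medians ran from -1.08 (mural cell) to 0.13 (endothelial transcription factors). Sensitive minus vehicle medians ran from 0.08 (other angiogenic factors) to 0.71 (this list). Sensitive and vehicle arrays shared a slide, so the contrast of resistant with vehicle carries the slide and that of sensitive with vehicle does not.

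Among the receptors that sunitinib inhibits, 6 of 9 were called lower, beside 28.7% of all genes, and 0 higher, with a list median of -0.83. Of the 7 members above background on all 8 arrays 4 were called lower, beside 10.9%. In every scaling brought to the same median 2 of the 6 calls held. Flt1 stood at 3.69, 2.14, 2.37 and 3.18 on the resistant arrays and at 4.75, 4.47, 4.89 and 4.07 on the sensitive arrays. The 2 groups did not overlap, vehicle mice at 3.31 to 3.82 lay below all sensitive mice, and the fall was 1.70 ± 0.31 (SE, adjusted p = 0.000914). Kdr, the main signalling receptor for VEGF, stood at 2.28, 3.19, 3.04 and 3.24 against 3.92, 3.94, 3.53 and 3.68 and fell by 0.83 ± 0.21 (SE, adjusted p = 0.00704). A further Kdr probe gave -0.56 (adjusted p = 0.11), and the Kdr probe used here was only 0.39 higher in the EC than in the bulk fraction over the 8 mice, against 3.11 for Pecam1. Flt4, the receptor of VEGF-C and VEGF-D, fell by 1.07 ± 0.28 (SE, adjusted p = 0.00823), but its difference was 0.07 with quantile scaling and 1 resistant array did not measure it above background. Pdgfrb, the mural cell receptor, fell by 0.91 ± 0.33 (SE, adjusted p = 0.0413) on overlapping arrays and lost its call without any of 9 single arrays (adjusted p up to 0.118). Pdgfra, the fibroblast receptor, differed by 0.27 ± 0.32 (SE, adjusted p = 0.507), or by -0.11 with the mouse number as a block; the difference between these receptors was not tested.

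Kit, the stem cell factor receptor of mast cells and some endothelium, fell by 0.68 ± 0.24 (SE, adjusted p = 0.0362), with a call that was lost without any of 5 single arrays (adjusted p up to 0.0996). Ret fell by 2.36 ± 0.63 (SE, adjusted p = 0.00906), yet only 1 of 4 resistant arrays measured it above background and the fall held in 3 of the 7 other scalings. Csf1r, the receptor that sustains macrophages, stood at 6.58, 8.13, 8.43 and 8.21 on the resistant arrays and between 6.82 and 7.64 on the sensitive arrays. Resistant mouse 1 lay below every sensitive array and the other 3 lay above them, with a difference of 0.71 ± 0.42 (SE, adjusted p = 0.191). Further Csf1r probes gave 1.27 (limma adjusted p = 0.0845) and 1.11 (limma adjusted p = 0.0782). Flt3 of dendritic cell precursors differed by -0.55 ± 0.36 (SE, adjusted p = 0.226), which turned to 0.52 with quantile scaling, and another probe of the gene by -1.94 (adjusted p = 0.000178).

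VEGF ligands and receptors were called lower in 5 of 10 cases, beside 28.7% of all genes, and higher in 0, with a median of -0.75. Among the 8 members above background on all 8 arrays 3 were called lower, beside 10.9%. Vegfa, the ligand itself and a gene that hypoxia induces, stood at 3.50, 4.05, 4.97 and 5.30 against 4.13, 4.73, 4.43 and 4.50. The groups overlapped and their difference was 0.01 ± 0.36 (SE, adjusted p = 0.984), or -0.38 with quantile scaling. A further Vegfa probe gave 0.46 (limma adjusted p = 0.311). Placental growth factor (Pgf), a ligand of FLT1, fell by 0.94 (adjusted p = 0.021), a call lost without sensitive mouse 4 or resistant mouse 2. Vegfd fell by 1.52 ± 0.31 (SE, adjusted p = 0.00177) with 1 of 4 resistant arrays above background, and differed by -0.08 with quantile scaling, where it was not called.

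**Figure D4:**
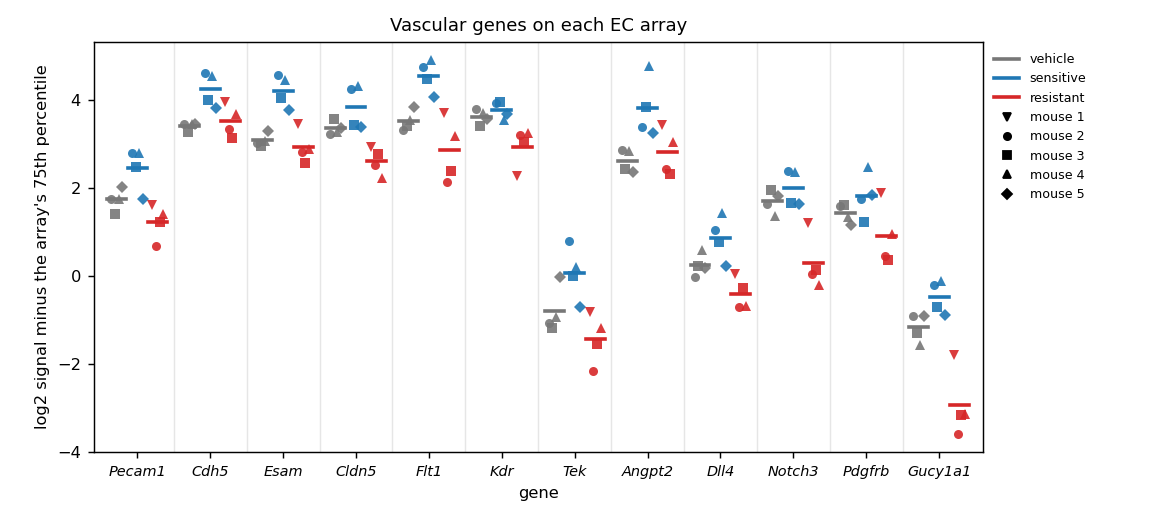
Level of 12 vascular genes (log2 signal relative to the 75th percentile of its array) on each EC array, with vehicle in grey, sensitive in blue and resistant in red; markers are mice and bars are group means. Resistant markers lie below all others for Notch3 and Gucy1a1, whereas for Esam they lie beside the vehicle markers and the sensitive markers lie above both.

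The angiopoietin and TIE axis, which sets vessel stability, was called lower in 5 of 7 members, beside 28.7% of all genes, with a median of -0.98. Tek, the angiopoietin receptor, stood at -0.82, -2.16, -1.55 and -1.18 on resistant arrays, below all of 0.79, -0.00, 0.20 and -0.71 on sensitive arrays, and fell by 1.50 ± 0.37 (SE, adjusted p = 0.00597). Ptprb, the phosphatase that holds TEK in check, fell by 1.60 ± 0.40 (SE, adjusted p = 0.00668), although resistant mouse 1 at 3.45 exceeded sensitive mouse 5 at 3.37. Angpt2, the ligand that endothelium releases on activation, fell by 1.00 ± 0.34 (SE, adjusted p = 0.0298), a call lost without sensitive mouse 3, sensitive mouse 4, resistant mouse 2 or resistant mouse 3 (adjusted p up to 0.086). The number of members called was 3 without sensitive mouse 2 and 2 without sensitive mouse 4, resistant mouse 2 or resistant mouse 3.

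Sprouting and Notch genes were called lower in part. Of 20 tip cell and VEGF response genes, all well above background on all 8 arrays, 5 were called lower and 0 higher (median -0.48), beside 28.7% of all genes and 10.9% of genes in that class, and 8 were called lower without sensitive mouse 5 or without resistant mouse 1. Dll4, the Notch ligand of tip cells, stood at 0.03, -0.72, -0.27 and -0.67 against 1.03, 0.78, 1.42 and 0.22, with no overlap. Its fall was 1.27 ± 0.26 (SE, adjusted p = 0.00186). Igfbp3 fell by 1.29 ± 0.30 (SE, adjusted p = 0.00393) and Pcdh17 by 1.08 ± 0.26 (SE, adjusted p = 0.00532), the latter not called with quantile scaling. In the Notch pathway list 6 of 15 were called lower, beside 28.7% of all genes, and 1 higher (median -0.39). Among its 14 members above background on all 8 arrays 5 were called lower, beside 10.9%. Notch3, the receptor of mural cells, stood at 1.20, 0.04, 0.14 and -0.20 against 2.38, 1.66, 2.35 and 1.62 and fell by 1.71 ± 0.30 (SE, adjusted p = 0.000598). The Notch target Heyl fell by 1.69 ± 0.33 (SE, adjusted p = 0.00135), and Hey2, which no resistant array measured above background, was at least 1.47-fold lower (adjusted p = 0.00175) and was not called with quantile scaling. Notch1 was the member called higher, by 2.35 ± 0.59 (SE, adjusted p = 0.00692); it was picked out after its values were seen, and its other probe was called the opposite way (-2.29), so that these arrays give no direction for it.

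Endothelial transcription factors were called lower in 8 of 20 cases, beside 28.7% of all genes, and higher in 1, with a median of -0.49. Among the 19 members above background on all 8 arrays 7 were called lower, beside 10.9%. Sox7 stood at 0.95, -0.20, 0.35 and 0.66 on resistant arrays and at 2.68, 1.97, 2.39 and 1.74 on sensitive arrays, without overlap, and fell by 1.75 ± 0.27 (SE, adjusted p = 0.000223). Its relative Sox17, an arterial factor, fell by 1.01 ± 0.25 (SE, adjusted p = 0.0063), and its other probe by 1.53. Klf2, the factor induced by laminar flow, was the member called higher, at 6.13, 6.30, 6.44 and 6.08 against 5.62, 5.36, 5.81 and 5.45. Its rise of 0.68 ± 0.14 (SE, adjusted p = 0.00182) was 0.29 with quantile scaling and was then not called (adjusted p = 0.13).

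BMP and TGF-beta genes were called lower in 7 of 23 cases and higher in 2 (Tgfbr1 0.52, adjusted p = 0.0166; Id1 0.73, adjusted p = 0.0194), with a median of -0.43. That count of falls is near the background of 28.7%, and among the 19 members above background on all 8 arrays 3 were called lower, beside 10.9%. Each of these rises was lost without either of 2 single arrays (sensitive mouse 2 or resistant mouse 3 for Tgfbr1, sensitive mouse 3 or resistant mouse 2 for Id1) and with quantile scaling. The count of falls was 11 without resistant mouse 1 and 4 without sensitive mouse 3, sensitive mouse 4 or resistant mouse 3. Bmp10, which no resistant array measured above background, was at least 9.06-fold lower in the resistant group (adjusted p = 2.08e-08). Bmp6 of sinusoidal endothelium fell by 3.02 ± 0.45 (SE, adjusted p = 0.00017) and Atoh8 by 1.59 ± 0.22 (SE, adjusted p = 0.000104), each with 1 of 4 resistant arrays above background. Atoh8 was not called with quantile scaling. Bmp10, Bmp6 and Atoh8 entered the test through the sensitive and vehicle arrays, where they were brighter, so their p-values are no support for a change of this pathway.

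Other angiogenic factors moved both ways, with 4 of 21 called lower and 2 higher (median -0.16), shares below the backgrounds of 28.7% and 17.6%; 2 were called lower without sensitive mouse 2 or resistant mouse 3, and 7 without resistant mouse 1. Cxcl12, a chemokine that stroma and vessels make and that holds CXCR4-bearing cells, stood at 1.73, 0.84, 1.22 and 1.47 against 3.38, 3.14, 3.64 and 2.59. Resistant arrays lay below all sensitive ones, and the fall of 1.87 ± 0.30 (SE, adjusted p = 0.000331) was matched by -1.63 at its other probe. Fgf7 fell by 1.08 ± 0.29 (SE, adjusted p = 0.0094) but differed by -0.18 with quantile scaling. Met and Pdgfd were the other members called lower. Fgf2, an endothelial growth factor outside the VEGF family, stood at -4.32, -2.36, -4.61 and -3.46 against -4.52, -5.25, -5.31 and -5.28, and rose by 1.40 ± 0.41 (SE, adjusted p = 0.0151) on overlapping arrays, with 3 of 4 resistant arrays above background. Axl, also called higher, rose by 0.72 (adjusted p = 0.0449), a call lost without any of 9 single arrays.

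Genes that set vessel tone fell in 11 of 17 cases, beside 28.7% of all genes, and rose in 0, with a median of -0.98. Among the 13 members above background on all 8 arrays 8 were called lower, beside 10.9%. In all, 7 fell without sensitive mouse 2, sensitive mouse 4 or resistant mouse 3. Gucy1a1 and Gucy1b1 encode the subunits of soluble guanylate cyclase, the nitric oxide receptor of vascular smooth muscle and pericytes. Gucy1a1 stood at -1.79, -3.58, -3.16 and -3.15 on resistant arrays and at -0.21, -0.72, -0.12 and -0.89 on sensitive arrays, a fall of 2.44 ± 0.34 (SE, adjusted p = 0.000105) with no overlap. Gucy1b1 fell by 1.86 ± 0.35 (SE, adjusted p = 0.001) and the endothelin receptor Ednrb by 1.60 ± 0.30 (SE, adjusted p = 0.00111).

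Leukocyte adhesion and high venule genes were called lower in 6 of 11 cases (median -0.54), beside 28.7% of all genes. Their count was 2 without sensitive mouse 2 or without resistant mouse 3. Cd34 fell by 0.79 ± 0.20 (SE, adjusted p = 0.00712), while E-selectin (Sele) fell by 2.45 ± 0.69 (SE, adjusted p = 0.0125) with 3 of 4 resistant arrays above background and no call with quantile scaling. P-selectin (Selp) fell by 1.33 ± 0.40 (SE, adjusted p = 0.0176), and its adjusted p was up to 0.055 without sensitive mouse 2, resistant mouse 2 or resistant mouse 3. Genes of caveolae and lipid uptake, traits of capillary endothelium, fell in 9 of 14 cases (median -0.80), beside the same 28.7%. Their count was 5 without sensitive mouse 2, sensitive mouse 4 or resistant mouse 3. The carbonic anhydrase Car4 fell by 1.63 ± 0.20 (SE, adjusted p = 3.62e-05; another probe -0.97, adjusted p = 0.15) and the caveolar coat gene Cavin2 by 1.15 ± 0.28 (SE, adjusted p = 0.00603). Timp4 was at least 6.49-fold lower, with no resistant array above background (adjusted p = 1.03e-05).

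Mural cell genes fell in 16 of 18 cases, beside 28.7% of all genes, with 0 rises and a median of -1.35. Of these calls, 13 held in every scaling brought to the same median (the median of the list ran from -1.63 to -0.07 over the scalings as run) and between 14 and 16 without any single array. The mean level of the list lay between -0.35 and 0.71 on the resistant arrays, 0.98 and 1.86 on the sensitive arrays and 0.74 and 1.08 on the vehicle arrays. The resistant group also lay below vehicle for this list, with 10 members called lower, 1 higher and a median of -1.08. Desmin (Des) fell by 2.05 ± 0.32 (SE, adjusted p = 0.000215), the myosin light chain kinase Mylk by 1.53 ± 0.25 (SE, adjusted p = 0.000355) and Myocd, the cofactor that drives smooth muscle genes, was at least 1.93-fold lower (adjusted p = 0.000157) with no resistant array above background and no call with quantile scaling. Notch3 and Pdgfrb, described above, are also members. The CArG box of smooth muscle genes was present in 0 of the 11 promoter windows of the list, against 1.57% of all windows. At so low a share, 11 windows are too few to show whether the list differs from all genes.

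Basement membrane genes were called lower in 5 of 14 cases (median -0.60), beside 10.9% of genes above background on all 8 arrays. This count moved with single arrays. It was 1 without sensitive mouse 2, sensitive mouse 4, resistant mouse 2 or resistant mouse 3, 2 without resistant mouse 4, 3 without sensitive mouse 3, and 8 without sensitive mouse 5 or resistant mouse 1, and it was 10 with quantile scaling. Col4a2, a chain of type IV collagen, stood at 4.73, 3.76, 4.19 and 4.42 against 5.56, 5.26, 5.99 and 4.72 and fell by 1.11 ± 0.27 (SE, adjusted p = 0.00511). Lamb2 fell by 0.66 and Nid1 by 0.86 (adjusted p = 0.0331 and 0.0356), calls lost without any of 5 single arrays (adjusted p up to 0.102). Other Nid1 probes gave 0.13 (adjusted p = 0.685) and -1.01 (adjusted p = 0.0507).

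Stromal lists beyond the vessel wall changed little, beside 17.6% of all genes called higher and 28.7% called lower. Of 17 fibroblast and interstitial matrix genes, Dpt fell by 1.60 ± 0.48 (SE, adjusted p = 0.0173) and fibronectin (Fn1) rose by 0.48 ± 0.17 (SE, adjusted p = 0.0363), and both calls were lost when single arrays were left out (adjusted p up to 0.114) and turned sign with the deposited values. The list median was -0.25. Of 15 matrix metalloproteinases and inhibitors 3 rose and 2 fell (median 0.52). Timp2 rose by 0.87 ± 0.24 (SE, adjusted p = 0.0106; another probe 0.43, adjusted p = 0.0863), stromelysin (Mmp3) by 1.36 ± 0.45 (SE, adjusted p = 0.0261; lost without sensitive mouse 2, sensitive mouse 3 or resistant mouse 1) and Mmp10 by 1.06 (adjusted p = 0.0424), although quantile scaling called 0 members higher and 3 lower, and 1 was called higher without sensitive mouse 2 or sensitive mouse 3. Timp3 fell by 1.24 ± 0.34 (SE, adjusted p = 0.0105) and Adamts4 by 0.75 (adjusted p = 0.0379). Mesenchymal transition genes fell in 3 of 12 cases (median -0.20; 5 without resistant mouse 1), with N-cadherin (Cdh2) at -1.90 ± 0.26 (SE, adjusted p = 8.88e-05), Zeb1 at -1.09 ± 0.23 (SE, adjusted p = 0.00252) and Prrx1 at -1.40 ± 0.42 (SE, adjusted p = 0.0174; 0.052 without sensitive mouse 4).

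Markers of other cells moved as well. Adipocyte genes, which the fat pad supplies, were called lower in 10 of 13 cases, and 6 members were above background on no resistant array. Among the 4 members above background on all 8 arrays all 4 were called lower, with a median of -1.30. The mean level of the list lay between -3.85 and -3.25 on resistant, -1.80 and -1.29 on sensitive and -2.20 and -0.49 on vehicle arrays. Leptin (Lep) was at least 7.31-fold lower (adjusted p = 4.62e-08), Cidec at least 4.29-fold (adjusted p = 1.05e-07) and Adrb3 at least 4.42-fold (adjusted p = 4.33e-05). Skeletal muscle genes were called lower in 7 of 9 cases, and in 2 of the 3 above background on all 8 arrays, with Acta1 at -2.98 ± 0.43 (SE, adjusted p = 0.000122) and Pvalb at -2.93 ± 0.42 (SE, adjusted p = 0.000121). Eosinophil genes were called lower in 9 of 10 cases, and in 1 of the 2 above background on all 8 arrays, with Ear6 at -3.28 ± 0.68 (SE, adjusted p = 0.00197) and the eotaxin receptor Ccr3 at -2.82 ± 0.61 (SE, adjusted p = 0.00282), each above background on 2 of 4 resistant arrays. The interleukin 5 receptor Il5ra was at least 2.71-fold lower (adjusted p = 0.000396). With quantile scaling 8, 5 and 4 members of these 3 lists were called lower. Most members of these lists entered the test through the sensitive and vehicle arrays, where they were brighter, and in the dimmest 3 bins 58.6% to 74.0% of all genes were called lower, so their counts are no support for a change of these cells. Their part in the falls of vascular genes was not tested.

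Macrophage genes stood higher without passing the test as a rule. All 17 differences were above 0, with a median of 0.77, but 1 was called, Cx3cr1 at 1.49 ± 0.43 (SE, adjusted p = 0.0152; 0.057 with quantile scaling). Resistant mouse 1 had a mean level of 3.52 over the list, below the 3.80 to 4.60 of the sensitive arrays, while resistant mice 2 to 4 stood at 5.07, 5.61 and 5.52. Without resistant mouse 1, 12 of 17 were called higher, and without sensitive mouse 3 or vehicle mouse 2, 3 were. The mean levels of the list lay in the range of bins 9 and 10 by brightness (10 the brightest). There the medians over all genes were 0.38 and 0.44, and 33.6% and 39.5% of genes were called higher. Over all genes the count of higher calls also rose without resistant mouse 1, from 3155 to 3814. Lysozyme (Lyz2) stood at 5.10, 6.40, 7.39 and 7.44 against 4.68, 5.76, 5.65 and 4.27, a difference of 1.49 ± 0.58 (SE, adjusted p = 0.0509). That same mouse had the highest mean level of the endothelial list (2.53) and of the mural list (0.71) in the resistant group.

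Lymphocyte and granulocyte lists moved in few members, beside 28.7% of all genes called lower and 17.6% called higher. Of 18 T and NK cell genes 3 fell (median -0.63; 5 without vehicle mouse 2): Cd4 by 1.93 ± 0.31 (SE, adjusted p = 0.000312), perforin (Prf1) by 2.09 ± 0.69 (SE, adjusted p = 0.0279; up to 0.070 without resistant mouse 3 or 4), and Klrb1c, at least 2.38-fold lower (adjusted p = 0.000209). Of 12 neutrophil genes Retnlg fell by 2.56 ± 0.65 (SE, adjusted p = 0.00742) and Elane by 2.14 ± 0.18 (SE, adjusted p = 1e-06), while the receptor Csf3r rose by 0.61 ± 0.16 (SE, adjusted p = 0.00918; not called with quantile scaling), and the median was -0.30. Of 10 B and plasma cell genes 3 fell (median -0.55; 0.53 with quantile scaling), among them Cd79a by 1.91 ± 0.20 (SE, adjusted p = 8.82e-06; 1 of 4 resistant arrays above background, -0.56 with quantile scaling and -0.34, not called, with cyclic loess) and Derl3, whose call was lost without any of 6 single arrays. Derl3 was called higher with quantile scaling (0.47). Platelet genes fell in 4 of 9 cases with a median of -0.83 that reversed to 0.30 with quantile scaling; Gp5, Gp1bb and Gp9 were called, and Itgb3, which endothelium also carries, fell by 1.11 ± 0.29 (SE, adjusted p = 0.00772; another probe -0.52, adjusted p = 0.102).

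The remaining marker lists gave few calls, beside 28.7% of all genes called lower. Dendritic cell genes fell in 2 of 8 cases, Cd209a (lost without any of 9 single arrays) and Zbtb46, the latter at -1.34 ± 0.15 (SE, adjusted p = 1.88e-05; another probe -0.40, adjusted p = 0.297), and lymphatic endothelial genes in 2 of 6, Flt4 and Prox1, the latter with 0 of 4 resistant arrays above background and an adjusted p of 0.052 without resistant mouse 3. Among 7 mast cell genes Kit was called lower, the protease Mcpt4 differed by 0.81 ± 0.68 (SE, adjusted p = 0.351) and the list median was 0.24. Erythroid genes fell in 2 of 6 (median 0.17), Epor (lost without any of 5 single arrays) and Slc4a1, the latter at -2.57 ± 0.26 (SE, adjusted p = 5.41e-06). Of 17 tumour epithelial genes 0 were called in either direction by limma, and 0 at an unadjusted p under 0.05 (median 0.51; 2 higher without resistant mouse 4 and 0 with quantile scaling). Elf3 differed by 1.23 ± 0.60 (SE, adjusted p = 0.111), and the mean level of the list ranged from 1.15 to 3.09 on resistant and from 0.81 to 2.65 on sensitive arrays.

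Antigen presentation genes rose. All 13 MHC class I presentation genes were called higher, where 24.9% of genes well above background on all 8 arrays were, with a median of 0.81 and rises from 0.43 to 0.95. In the brightest bin, where the mean levels of this list lay, 39.5% of genes were called higher and the median was 0.44. With quantile scaling the median was 0.40 and 5 were called higher, and 3 calls held in every scaling. H2-K1, a classical class I heavy chain, stood at 8.62, 8.93, 8.56 and 8.45 on resistant arrays and at 7.59, 7.65, 7.61 and 8.04 on sensitive arrays. It rose by 0.92 ± 0.15 (SE, adjusted p = 0.000405) with no overlap, and its other probe by 0.56. Tap2, a subunit of the peptide transporter, rose by 0.85 ± 0.14 (SE, adjusted p = 0.000295), with 5.68, 5.51, 5.48 and 5.37 above 4.56, 4.44, 4.76 and 4.87. H2-D1 rose by 0.81 ± 0.14 (SE, adjusted p = 0.000635; 0.056 with quantile scaling). Of 8 MHC class II presentation genes 4 were called higher (1 with quantile scaling) and the median was 0.99. In bins 9 and 10 by brightness, which span the mean levels of the class II list, 33.6% and 39.5% of all genes were called higher. In every scaling brought to the same median 1 class II call held. The mean level of this list was 4.09 for resistant mouse 1, within the 3.33 to 4.51 of the sensitive arrays. Resistant mice 2 to 4 stood at 5.10, 5.16 and 5.18. Resistant mouse 1 was also the lowest resistant array for the macrophage list, and a link between the lists was not tested. H2-DMb1, which loads class II molecules in antigen-presenting cells, rose by 1.61 ± 0.40 (SE, adjusted p = 0.00594), and H2-Eb1 by 1.08 ± 0.31 (SE, adjusted p = 0.014; 0.11 with quantile scaling), and H2-DMa was also called. H2-Aa rose by 1.43 ± 0.52 (SE, adjusted p = 0.0422), with adjusted p up to 0.118 without any of 7 single arrays, and the number of class II calls was 2 without each of those 7: sensitive mice 2, 3 and 4, resistant mice 2, 3 and 4, and vehicle mouse 3.

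Interferon response genes stood higher beside them, but not all counts exceeded those of genes of like brightness. In the interferon-gamma list 10 of 15 were called higher (median 0.79; 3 with quantile scaling; 6 without sensitive mouse 2), and in the type I list 7 of 21 (median 0.64; 5 with quantile scaling). The mean levels of both lists lay in the range of bins 8 and 9 by brightness, where 28.9% and 33.6% of all genes were called higher. The type I count is near those shares. In every scaling brought to the same median 1 interferon-gamma call and 4 type I calls held. Ifnb1, which encodes interferon beta, stood at 0.46, 1.41, 2.31 and 2.88 on resistant arrays and at -2.28, -0.06, -0.42 and -0.70 on sensitive arrays. Its rise of 2.63 ± 0.59 (SE, adjusted p = 0.00327) held in all 7 other scalings and was 2.62 with quantile scaling. Stat2 and Irf9 encode partners in the factor that type I interferon activates. Stat2 stood at 4.02, 4.22, 4.13 and 3.71 against 2.95, 3.12, 2.81 and 3.21 and rose by 1.00 ± 0.18 (SE, adjusted p = 0.000653). Irf9 rose by 0.88 ± 0.16 (SE, adjusted p = 0.000702). Both calls held in all 7 other scalings. Of the guanylate-binding proteins, Gbp3 rose by 0.86 ± 0.17 (SE, adjusted p = 0.00161) and Gbp7 by 1.00 ± 0.23 (SE, adjusted p = 0.00399). Irf1 rose by 0.81 ± 0.19 (SE, adjusted p = 0.0051) with its other probe at 0.22 (adjusted p = 0.303).

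Promoter windows of these genes were searched for motifs of the factors that interferons activate. The interferon-stimulated response element, searched as GAAANNGAAA on both strands in windows from 250 bases before to 50 after each start (RefSeq, GRCm38.p6), was present for 8 of the 11 interferon-gamma genes and 8 of the 17 type I genes with a window, against 3.49% of 27025 windows. Among the members called higher that had a window, 7 of 8 and 3 of 6 held it. The gamma-activated site, TTCNNNGAA, was present for 4 of 11 and 2 of 17, against 8.47%, and in class I presentation the counts were 3 and 1 of 11. A match is a description of sequence and not of binding. Windows of all genes made up the comparison, 14231 of them for genes tested here. The lists were chosen as interferon response genes, so these shares say nothing about resistant against sensitive mice. The 250 bases before the start of Gbp3 (chr3:142559794-142560043, plus strand) and Stat2 (chr10:128270248-128270497, plus strand) are shown because both genes rose with no overlap between the groups; capitals mark the element, 2 overlapping matches in Gbp3 and 1 in Stat2. For the heat shock genes described next, Hspe1 (chr1:55087898-55088147, plus strand) is shown with capitals over its 2 overlapping matches to the heat shock element, GAANNTTCNNGAA, which 2 of 7 heat shock genes held against 0.529% of windows.
Gbp3: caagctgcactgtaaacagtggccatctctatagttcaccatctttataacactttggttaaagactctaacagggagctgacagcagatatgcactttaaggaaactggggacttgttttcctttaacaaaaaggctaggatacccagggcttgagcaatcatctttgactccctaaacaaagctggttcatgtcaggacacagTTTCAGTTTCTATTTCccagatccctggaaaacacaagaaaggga
Stat2: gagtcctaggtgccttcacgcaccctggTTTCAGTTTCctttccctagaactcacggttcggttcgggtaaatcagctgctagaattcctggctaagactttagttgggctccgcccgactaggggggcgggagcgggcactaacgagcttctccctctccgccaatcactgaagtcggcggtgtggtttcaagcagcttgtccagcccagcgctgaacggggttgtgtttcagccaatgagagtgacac
Hspe1: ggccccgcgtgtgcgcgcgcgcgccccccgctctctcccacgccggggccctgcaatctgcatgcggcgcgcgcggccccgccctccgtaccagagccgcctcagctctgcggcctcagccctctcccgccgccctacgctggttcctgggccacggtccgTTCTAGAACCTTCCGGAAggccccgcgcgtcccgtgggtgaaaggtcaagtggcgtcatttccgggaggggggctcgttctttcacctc

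Stress response genes rose in both compartments of protein folding. In bins 9 and 10 by brightness (10 the brightest), which span the mean levels of the lists here, 33.6% and 39.5% of all genes were called higher. In every scaling brought to the same median 3 heat shock calls and 3 ER and amino acid stress calls held. Of 9 heat shock genes 6 were called higher and 0 lower (median 1.02; 4 higher and 1 lower with quantile scaling). Dnajb1, a cochaperone of the inducible response, stood at 6.85, 6.34, 6.87 and 6.05 against 4.73, 5.05, 5.48 and 5.31 and rose by 1.39 ± 0.25 (SE, adjusted p = 0.000831). The mitochondrial cochaperonin Hspe1 rose by 1.02 ± 0.18 (SE, adjusted p = 0.000507) and Hsp90aa1 by 1.02 ± 0.18 (SE, adjusted p = 0.000542). Another Hspe1 probe gave 0.07 (adjusted p = 0.735). Of 19 genes of ER and amino acid stress 10 rose (median 0.64; 6 with quantile scaling), among them Atf4, the factor that amino acid shortage induces, by 0.96 ± 0.14 (SE, adjusted p = 0.000127), and the ER chaperones Hspa5 by 0.83 ± 0.15 (SE, adjusted p = 0.00076) and Hsp90b1 by 0.87 ± 0.16 (SE, adjusted p = 0.00108). Immediate early genes rose in 5 of 19 cases and fell in 1, Egr3, with a median of 0.37 (-0.01 with quantile scaling). That count of rises is near the 24.9% of genes above background on all 8 arrays called higher, and below the 39.5% of the brightest bin. The rises included Ier2 at 1.23 ± 0.18 (SE, adjusted p = 0.000129), Btg2 at 1.16 ± 0.23 (SE, adjusted p = 0.00164) and Jund at 1.12 ± 0.21 (SE, adjusted p = 0.00089).

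Hypoxia response genes had no common direction. Of 22, 5 rose (Cited2, P4ha1, Car9, Pfkfb3 and Bnip3) and 1 (Mxi1) fell, with a median of 0.09. The count of rises is near the 24.9% of genes above background on all 8 arrays called higher. Cited2, a coregulator that hypoxia induces and that restrains HIF, stood at 2.88, 3.63, 3.95 and 4.07 against 1.60, 1.84, 2.15 and 1.58. All resistant arrays lay above all sensitive and vehicle arrays, and the rise was 1.84 ± 0.25 (SE, adjusted p = 6.95e-05), with 1.30 at its other probe. The prolyl hydroxylase P4ha1 rose by 0.68 ± 0.19 (SE, adjusted p = 0.0131; another probe 0.37, adjusted p = 0.08) and Car9, the tumour carbonic anhydrase, by 0.91 ± 0.33 (SE, adjusted p = 0.04, up to 0.117 without any of 5 single arrays). The list held 2 rises without sensitive mouse 2, sensitive mouse 3, resistant mouse 2 or resistant mouse 3 and 3 without sensitive mouse 5, resistant mouse 4 or vehicle mouse 4. Inflammatory cytokines rose in 1 of 18 cases, the monocyte chemoattractant Ccl7 by 1.50 ± 0.52 (SE, adjusted p = 0.0344, up to 0.095 without single arrays), and the list median was -0.10. The count of rises was 2 without resistant mouse 1 and 0 without sensitive mouse 2, sensitive mouse 5, resistant mouse 3 or resistant mouse 4 (limma). Il6 differed by -1.24 ± 0.50 (SE, adjusted p = 0.0618) and Ccl2 by 1.08 ± 0.50 (SE, adjusted p = 0.0988).

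Cholesterol synthesis genes, the targets of sterol sensing, rose in 9 of 20 cases (median 0.52; 4 with quantile scaling; 4 or 5 without sensitive mice 2, 3 or 5 or resistant mice 3 or 4). Of genes above background on all 8 arrays 24.9% were called higher, and 1 call of the list held in every scaling brought to the same median. Insig1, the sterol-responsive brake on this pathway, stood at 0.39, 0.93, 1.23 and 1.57 against -0.52, -0.39, -0.53 and -0.31 and rose by 1.47 ± 0.23 (SE, adjusted p = 0.000265) in all 7 other scalings as well. Msmo1 rose by 0.81 ± 0.18 (SE, adjusted p = 0.00383; 0.059 with quantile scaling) and Sc5d by 0.65 ± 0.15 (SE, adjusted p = 0.00425). Lysosome genes, of the organelle where basic drugs such as sunitinib gather, rose in 9 of 22 cases (median 0.68; 2 with quantile scaling). The mean levels of this list on the sunitinib arrays lay in the brightest bin, where 39.5% of all genes were called higher, a share near this count. In every scaling brought to the same median 0 of its calls held. Without resistant mouse 1 the count was 19, and without sensitive mouse 2, resistant mouse 3 or resistant mouse 4 it was 4 or 5. The channel Mcoln1 rose by 0.82 ± 0.12 (SE, adjusted p = 0.000147), the proton pump subunit Atp6v1h by 0.66 ± 0.17 (SE, adjusted p = 0.00656) and the cholesterol carrier Npc2 by 0.85 ± 0.23 (SE, adjusted p = 0.00947; 0.079 with quantile scaling).

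Lists of bright, widely expressed genes rose by amounts that moved with the scaling. Of genes above background on all 8 arrays 24.9% were called higher, and of the brightest bin 39.5%. Cell cycle genes rose in 12 of 28 cases and fell in 1 (median 0.51; 5 rises with quantile scaling, 7 without sensitive mouse 2 or sensitive mouse 5), with Cdc20 at 1.01 ± 0.23 (SE, adjusted p = 0.0037), Aurka at 0.89 ± 0.22 (SE, adjusted p = 0.0055) and Tyms, which fell, at -1.48 ± 0.15 (SE, adjusted p = 8.35e-06). Glycolysis genes rose in 11 of 18 cases and fell in 1 (median 0.52; 0.17 and 1 rise with quantile scaling), led by Pfkl at 0.78 ± 0.21 (SE, adjusted p = 0.0106) and Pdk1 at 0.53 ± 0.14 (SE, adjusted p = 0.0102), while the lactate transporter Slc16a1 fell by 1.17 ± 0.32 (SE, adjusted p = 0.00979). The count of glycolysis rises was 3 without sensitive mouse 2, 5 without sensitive mouse 3 or resistant mouse 3 and 7 without resistant mouse 4. Oxidative phosphorylation genes rose in 12 of 17 (median 0.49; 0 rises and 2 falls with quantile scaling), among them the ATP synthase subunit Atp5b by 0.76 ± 0.13 (SE, adjusted p = 0.000367). Ribosomal protein genes were called higher in 6 of 12 cases and lower in 1, Rpl4 (median 0.44), and their median turned to -0.02 with quantile scaling, so that no direction is given for them.

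**Figure D5:**
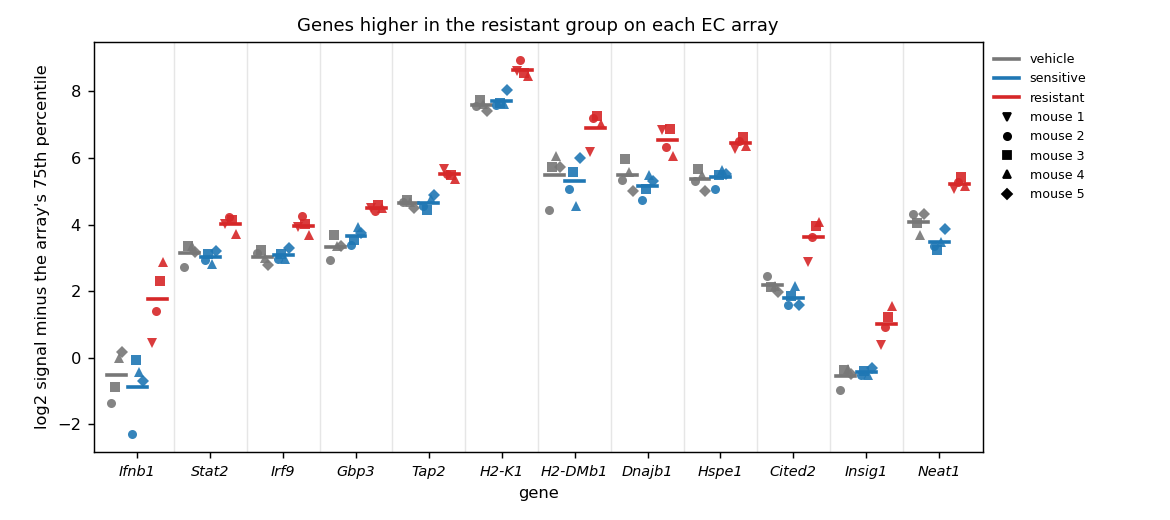
Level of 12 genes called higher in the resistant group (log2 signal relative to the 75th percentile of its array) on each EC array, with vehicle in grey, sensitive in blue and resistant in red; markers are mice and bars are group means. For each of the 12 the resistant markers lie above all sensitive markers, and Ifnb1 has the widest spread, from 0.46 to 2.88 in the resistant group.

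The largest single changes covered a wide range of brightness. Among called genes above background on all 8 arrays and with no overlap, the 12 largest rises ran from 1.65 to 2.63. They were AU018091, Ifnb1, 4921531C22Rik, Enthd1, Ttc25, Mogat1, the histone gene H2bc8, Cited2, 4933421O10Rik, the nuclear paraspeckle RNA Neat1, Tlr12 and Ddx23. Neat1 stood at 5.06, 5.26, 5.42 and 5.17 against 3.37, 3.24, 3.49 and 3.85 and rose by 1.74 ± 0.18 (SE, adjusted p = 8.4e-06). Another probe of Ttc25 was called the opposite way, at -1.88, and over all genes 119 called genes had another probe called the other way. Notch1, whose arrays overlapped, was not among the rises. The 12 largest falls ran from -4.34 to -3.44: Mdh1b, Fbxw13, Zfp36l3, Pkd1l3, Serpinb2, Cyp2c37, Sstr4, Syt10, Nog, Krtap10-4, Vmn1r87 and Gzmc. Mdh1b stood at -3.08, -2.68, -3.13 and -3.58 on resistant arrays, at 1.03, 1.42, 1.09 and 1.33 on sensitive arrays and at 1.24, 1.32, 1.31 and 0.95 on vehicle arrays, a fall of 4.34 ± 0.19 (SE, adjusted p = 2.23e-08). Vmn1r87 encodes a vomeronasal receptor and Krtap10-4 a hair keratin-associated protein. Over the 12 falls the median difference between sensitive and vehicle was 0.00. Their group means ran from 0.09 (Krtap10-4) to 2.97 (Gzmc) on the sensitive arrays and from -3.50 (Pkd1l3) to -0.47 (Gzmc) on the resistant arrays. Resistant group means of the 12 rises ran from -2.66 (Mogat1) to 5.23 (Neat1). Serpinb2, which encodes plasminogen activator inhibitor 2, fell by 3.84 ± 0.86 (SE, adjusted p = 0.00338), and the granzyme Gzmc by 3.44 ± 1.31 (SE, adjusted p = 0.0482), a call that was lost without any of 8 single arrays (adjusted p up to 0.107).

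Genes measured on all 4 sensitive arrays and on no resistant array have only a bound. The 8 largest were Olfr1349, at least 17.6-fold lower in the resistant group, Camk2a (17.0-fold), Paqr6 (15.5-fold), Olfr700 (15.4-fold), Rgs7 (15.2-fold), Fev (14.5-fold), Siah3 (14.0-fold) and Sorcs1 (13.4-fold), with limma adjusted p between 1.49e-08 and 3.32e-07. Each bound sets the mean of the sensitive arrays against the mean, over resistant arrays, of the lowest signal among probes well above background or the probe's own signal where that was higher. These genes, like all given a bound above, entered the test through the sensitive and vehicle arrays alone. The resistant arrays detected fewer probes throughout, so neither the bounds nor the p-values are support for a change in the cells.

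The bulk fraction of the same tumours gives the same comparison beside the EC fraction. There the resistant and sensitive groups differed in the higher direction for 3.33% of genes and in the lower direction for 8.95%. Of the 12 largest falls in the EC fraction 9 were also called lower in bulk, and of the 12 largest rises 5 were also called higher; the 2 fractions share no array, but all resistant samples of both lie on slide 3. Mdh1b differed by -4.60 in bulk (adjusted p = 2.75e-05), Neat1 by 1.38 (adjusted p = 0.0356) and Cited2 by 1.48 (adjusted p = 0.0236). The median of the endothelial identity genes in bulk was 0.76 (0.85 without resistant mouse 2, whose bulk array detected 83.4% of probes, against 55.3% to 58.7% for the other resistant bulk arrays), with 2 of 28 called lower and 0 higher. In the test of the difference between the fractions 1 of the 28 was called. Over the 8 mice their EC level exceeded the bulk level by a median of 4.47.

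Few genes passed the test of the difference between the fractions. In that test, on the EC minus bulk value of each mouse, 251 of 18280 genes were higher (1.37%) and 193 lower (1.06%). With the mouse number as a block at most 1 gene passed in either direction, and from the 8 sunitinib mice alone at most 34. Sox17 fell by 1.01 in the EC fraction and differed by 4.09 in bulk (adjusted p = 0.037), a difference of -5.10 (adjusted p = 0.0387; -5.15 without the bulk array of resistant mouse 2). Sox7 (-4.03), Hey2 (-3.35), Nid2 (-3.12), the fatty acid receptor Cd36 (-2.83), Cxcl12 (-2.58), Dlc1 (-2.57), Angpt2 (-2.19) and Notch3 (-1.64) also had a lower EC minus bulk value in the resistant group. Cd36 itself fell in the EC fraction by 1.66 ± 0.55 (SE, adjusted p = 0.0265; up to 0.079 without sensitive mouse 2, sensitive mouse 4, resistant mouse 2 or resistant mouse 3) and Dlc1 by 1.63 ± 0.31 (SE, adjusted p = 0.00125), while Nid2 differed by -0.76 ± 0.31 (SE, adjusted p = 0.0659). The histone gene H4f16 (1.89), fibrillarin (Fbl, 1.61) and the ubiquitin ligase Rnf25 (1.55) had a higher value. These calls depended on single mice. The count of higher genes was at most 6 without any sensitive mouse, resistant mouse 3 or 4 or vehicle mouse 2, 4 or 5, 242 without vehicle mouse 3, 525 without resistant mouse 1 and 663 without resistant mouse 2. The count of lower genes was at most 31 without the same mice, 240 without vehicle mouse 3, 391 without resistant mouse 1 and 386 without resistant mouse 2.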

How the data were processed

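RNA of each fraction was hybridised as Cy3 to 1-colour Agilent arrays from 50 ng, per the labels' protocols; each sample is a mouse, so p-values measure the spread between animals. The scanner intensity used is the processed signal that the authors deposited, made by Feature Extraction 10.7.3.1 per the file headers (the submitters' processing notes name 9.1), already background-subtracted; the depth of an array is not a count, so precision rests on how many arrays there are. Of 55681 probes, 26582 were named through the RefSeq accessions in the files, giving 20145 genes, and the brightest named probe over 24 arrays stood for each gene. Each array was taken as log2 minus the 75th percentile of its non-control spots. Genes well above background on at least 4 of the 12 EC arrays entered limma 3.58.1 (R 4.3.3; lmFit and eBayes, 9 residual degrees of freedom, vehicle arrays included to estimate the spread), with Benjamini-Hochberg adjustment and a threshold of 0.05; the bulk and the EC minus bulk values were fitted likewise. A bound ("at least N-fold") is given where no resistant array was above background. Alternatives were the scalings and filters named in the text, 8 arrays only, the mean of all probes, each array left out, normexp (offset 50) on the median signal, since the mean signal foreseen is not used here, and the table of normalized signal deposited by the authors, set on log2, with column medians from 120.0 to 125.6. Deviations from the group means correlated over genes between same-numbered resistant and sensitive mice (r of 0.14, 0.27 and 0.14 for mice 2, 3 and 4). Pairs of different number were not compared, so this shows no particular tie between same-numbered mice. The mouse number was also fitted as a block, although mice of different treatment are different animals. The scanner data of a resistant sample titled mouse 4 carry another number, and the title was followed. Named genes were called genes with the 12 largest rises and 12 largest falls that were above background on all 8 arrays without overlap, the 8 largest bounds, the 3 smallest p of each of 45 lists, 12 vascular and drug-target genes, and the 6 largest EC minus bulk differences each way. The fits were tested on simulated data. The genes and lists were chosen with earlier results of these data known. The result of a single gene of these lists is not reported here.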

Additional observations from a re-analysis of the deposited data

Results flagged for a closer look

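In 17 of the 360 groups of 4 EC arrays of named genes, a single array stood apart from the other 3 by Dixon's criterion, which chance meets in about 1 group in 20. Resistant mouse 1 was the array apart for Ttc25 (-3.35, the others -1.48 to -1.38), 4933421O10Rik (-2.32, the others -1.73 to -1.66), Ddx23 (-1.53, the others -0.77 to -0.69), Cd4 (0.31, the others 0.85 to 0.95), Sox17 (1.72, the others 1.02 to 1.12), Npc2 (5.92, the others 6.69 to 6.80), Igfbp3 (3.52, the others 2.57 to 2.73) and Csf1r (6.58, the others 8.13 to 8.43). Among the other resistant arrays, mouse 2 stood apart for the first and mouse 3 for the second of Sorcs1 (-5.83, the others -4.91 to -4.80) and Timp4 (-6.82, the others -5.54 to -5.41). Sensitive mouse 4 stood apart for Prf1 (3.67, the others 0.04 to 0.48), Adrb3 (-2.98, the others -2.22 to -2.12) and Csf3r (5.50, the others 5.65 to 5.68). The level of sensitive mouse 2 lay apart for H2bc8 (-2.06, the others -1.51 to -1.44) and Fgf2 (-4.52, the others -5.31 to -5.25). The level of sensitive mouse 3 lay apart for Syt10 (1.21, the others 2.27 to 2.35). The level of sensitive mouse 5 lay apart for H2-K1 (8.04, the others 7.59 to 7.65).

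The difference between resistant and sensitive mice itself differed between the EC and the bulk fraction for 27 named genes (limma, adjusted p from 0.0331 to 0.0495). The EC minus bulk value was lower in the resistant group for Zfp36l3 (-2.19), Krtap10-4 (-2.03), Gzmc (-2.49), Paqr6 (-1.89), Fev (-2.47), Sox7 (-4.03), Nid2 (-3.12), Gzmd (-3.05), Cd36 (-2.83), Cxcl12 (-2.58), Dlc1 (-2.57), Notch3 (-1.64), Hey2 (-3.35), Angpt2 (-2.19), Sox17 (-5.10), Ear6 (-1.89), Ccr3 (-2.06) and Elane (-1.71). It was higher for Gdf3 (2.38), H4f16 (1.89), Fxyd2 (1.88), Elk4 (1.66), Fbl (1.61), Rnf25 (1.55), Mcoln1 (1.00), Rps6 (0.82) and Rps9 (0.99). Most calls of this test were lost without most single mice, at most 1 gene passed in either direction with the mouse number as a block, and at most 34 passed from the 8 sunitinib mice alone. The fractions of sensitive and vehicle mice lay on different slides and those of resistant mice on the same slide. Slide and resistance therefore cannot be told apart in this test. The causes were not tested.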

How the results depend on the processing

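Of the 158 named genes that passed the test, 87 kept their call and direction in every alternative run, 137 without each single array and 89 in every other setting. The count of higher genes in the EC fraction was 11806 with median scaling, 786 with the percentile of probes detected on all EC arrays and 1199 after normexp background correction brought to the same median, and it ran from 2020 to 3814 when single arrays were left out. Over genes well above background on all 8 arrays the same settings gave 11048, 782, 731 and a range from 2000 to 3773. The count of lower genes was 3400 with quantile scaling, 2199 with normexp, 2886 with normexp brought back, 2439 with median scaling, 3140 with the deposited values, 3237 with cyclic loess and 1335 where the 12596 genes on all 8 arrays were tested alone; with median scaling 293 of those were lower. The EC minus bulk difference gave 118 higher genes with quantile scaling, 712 with normexp, 0 with median scaling, 128 with the deposited values, 119 with the percentile over averaged probes, 106 with no filter, 738 over genes above background on all 16 arrays, 0 from the 8 sunitinib mice alone and 0 with the mouse number as a replicate block, and from 0 to 663 without single mice. Its count of lower genes was 127 with normexp, 0 with median scaling, 334 with cyclic loess, 119 with averaged probes, 95 with no filter, 34 from the 8 mice alone and 1 with the replicate block, and from 0 to 391 without single mice. The replicate block gave 3207 higher and 5258 lower genes in the EC fraction. With quantile scaling the sign reversed for the platelet list (0.30), the ribosomal protein list (-0.017), Fxyd2 (0.083), Derl3 (0.47), Flt4 (0.074), Gp1bb (0.30), Flt3 (0.52) and Vegfa (-0.38). With normexp background correction it reversed for the platelet list (0.14), Gdf3 (-0.018), Elk4 (-0.19), Dpt (0.046), Fn1 (-0.18), Prox1 (0.14), Reln (0.22) and Vegfa (-0.44). With the deposited values it reversed for the platelet list (0.27), the ribosomal protein list (-0.053), Fxyd2 (0.16), Derl3 (0.35), Vegfd (0.50), Dpt (0.11), Fn1 (-0.30), Flt4 (0.19), Gp1bb (0.061), Rps9 (-0.034), Flt3 (0.37) and Vegfa (-0.59). With cyclic loess scaling it reversed for the platelet list (0.57), the ribosomal protein list (-0.017), Fxyd2 (0.18), Derl3 (0.72), Vegfd (0.33), Cd209a (0.093), Dpt (0.11), Flt4 (0.38), Myocd (0.094), Gp1bb (0.61), Flt3 (0.75) and Vegfa (-0.38). With the mean of all probes it reversed for Fxyd2 (0.19) and Elk4 (-0.27). With the replicate block it reversed for Fxyd2 (0.35), Elk4 (-0.11) and Pdgfra (-0.11). Without single arrays Gdf3 ran from -0.10 to 0.67, Fxyd2 ran from -0.32 to 0.20, Elk4 ran from -0.059 to 0.13, Pdgfra ran from -0.024 to 0.45 and Vegfa ran from -0.27 to 0.33. The causes were not tested. Cyclic loess, averaged probes and the settings brought to the same median were chosen after seeing the data. With 4 arrays a group precision is limited by the few arrays, and dim probes on the resistant arrays have only bounds.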
